A study of Mus musculus with 12 samples.

Results

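The genes for aminoacyl-tRNA synthetases were examined in bulk RNA sequencing of mouse frontal cortex, in animals with and without Upf3b. The members were chosen by gene symbol, as 1 letter followed by "ars" with or without an ending of 2, l or l2, together with Eprs, Farsa and Farsb, and not by any measured value. There were 38 such genes among the 14909 genes of the table, 21 that serve the cytosol (Gars and Kars, which serve mitochondria as well, are counted here) and 17 that serve mitochondria. All 38 had enough counts to be tested. The study compared 7 wild-type C57BL/6 mice (WT) with 5 C57BL/6 mice lacking Upf3b (KO), with 1 library per mouse and the same pathogen-free housing for all. The labels give no age, sex, kind of Upf3b mutation or treatment. The UPF3B protein links the exon junction complex to nonsense-mediated decay (NMD), by which cells destroy mRNAs with premature stop codons. Nothing in the labels says more about litters or cultures, and p-values measure the spread between these mice.

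Aminoacyl-tRNA synthetases attach each amino acid to its tRNA and so set the genetic code at every codon. For most amino acids cells carry a cytosolic and a separate mitochondrial enzyme, both encoded in the nucleus. The enzymes fall into class I and class II by the fold of their catalytic domain. In animals, 8 of the cytosolic polypeptides (Eprs, Iars, Lars, Mars, Qars, Rars, Kars and Dars) assemble on scaffold proteins into the multi-synthetase complex. Inherited defects of these enzymes cause peripheral neuropathies, such as those of GARS and YARS, and disorders of brain white matter or cerebellum, such as those of EARS2 and RARS2. Many cytosolic synthetase genes are also targets of ATF4, the transcription factor that is made when amino acids run short.

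Library totals ran from 4684039 to 5425774 counts in WT and from 4990643 to 6617759 in KO. Of the KO libraries, 4 lay above every WT total and 1, KO 1, inside the WT range. Upf3b itself was at 33.8 to 40.9 CPM (each count divided by its library's total, scaled by the TMM method, and expressed per 1e+06 counts) in WT and at 1.71 to 3.79 CPM in KO, so no library went against its label. The log2 fold change of Upf3b was -3.78 ± 0.13 (SE; edgeR quasi-likelihood test, adjusted p = 7.21e-11). KO 2 and WT 4 stood apart from the other libraries of their groups: their median root mean square difference from the others, in log2 CPM, was 0.354 and 0.347, against 0.241 to 0.286 for the rest. Defining markers of cortical projection neurons were present, with a summed level of 1520 to 1790 CPM in WT and 1260 to 1770 CPM in KO for 11 genes. The 8 markers of striatum summed to 603 to 1440 CPM in WT and 673 to 1190 CPM in KO, with 0 called. The libraries thus differed widely in these within each group, and the part of dissection in the results was not tested. Markers of microglia fell in 8 of 14 cases (725 to 757 CPM summed in KO against 804 to 1000 in WT), those of astrocytes in 5 of 9, of oligodendrocytes in 4 of 10, of projection neurons in 3 of 11 and of inhibitory neurons in 3 of 9, while 4 of 6 markers of oligodendrocyte precursors and 4 of 12 of endothelial and mural cells rose. In the same test 15.3% of all genes rose and 14.4% fell. In a fit with offsets for count density, described below with the members, the falls numbered 6 for microglia, 2 for astrocytes, 0 for oligodendrocytes, 1 for projection neurons and 1 for inhibitory neurons, and the rises 3 for precursors and 0 for endothelial and mural cells. In such bulk tissue fewer cells of a type and less RNA per cell cannot be told apart, and the part of cell makeup in the results was not tested.

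Promoter sequences are shown because ATF4 regulates many of these genes through the C/EBP-ATF response element, whose core was searched as TGATGNAA on both strands of the RefSeq windows (GRCm38.p6, 250 bases before to 50 after each start). Of the 38 genes 28 had a window, and 5 of these (17.9%) held the motif, against 4.51% of all 27025 genes. All 5 (Aars, Gars, Iars, Tars and Yars) are among the 14 cytosolic genes with a window, and 0 of the 14 mitochondrial genes held it in theirs. Those with no window in the table included Cars, Hars, Hars2, Lars, Nars, Pars2, Rars, Vars and Wars. Of the matches, 3 lie before the start site and are printed 5′ to 3′ on the gene's strand, with the match, here on the opposite strand, in capitals.
Gars, chr6:55037951-55037998, plus strand: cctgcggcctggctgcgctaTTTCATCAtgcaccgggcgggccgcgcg
Aars, chr8:111033710-111033757, plus strand: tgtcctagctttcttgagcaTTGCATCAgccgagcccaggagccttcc
Tars, chr15:11399659-11399693, minus strand: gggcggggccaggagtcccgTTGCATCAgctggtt
The matches begin 30, 112 and 15 bases before the start in Gars, Aars and Tars. Those of Iars and Yars, and another of Aars, lie just after it.

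The synthetase genes were all expressed in frontal cortex, over a wide range of levels. Levels were compared between genes as WT CPM per kilobase of exon. Nars, the asparagine enzyme, was the most abundant at 71.3 ± 3.26 (SD, n = 7), followed by Gars, the glycine enzyme of both compartments, at 53.2 ± 3.47 and Hars, the histidine enzyme, at 50.9 ± 3.01. The cytosolic genes lay between 13.0 and 71.3 CPM per kilobase with a median of 30.3, and Tars, the threonine enzyme, was the lowest of them. The mitochondrial genes lay between 1.69 and 23.3 with a median of 10.5. Lars2, the mitochondrial leucine enzyme, was the most abundant of these, and Wars2 (tryptophan, 3.28 ± 0.509) and Mars2 (methionine, 1.69 ± 0.264) were the least. Of the 37 neighbouring pairs in this order, 32 had WT ranges that overlapped, so that most neighbours did not differ beyond their spread. The 5 steps without overlap lay below Nars, below Kars, and between Ears2 and Nars2, Pars2 and Wars2, and Wars2 and Mars2.

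**Figure D1:**
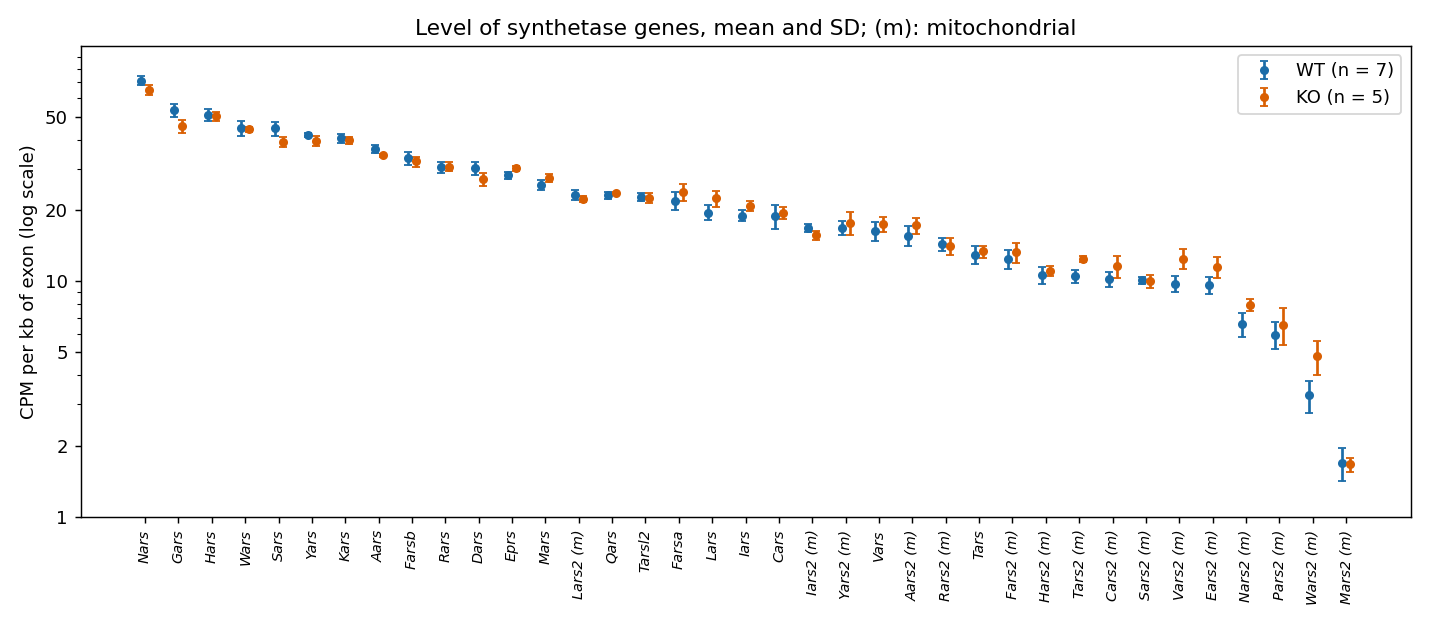
Mean level of 37 of the genes in WT and KO, as CPM per kilobase of exon on a log axis, with bars for the SD over 7 WT and 5 KO libraries and (m) for mitochondrial enzymes. Nars lies at the top at 71.3 in WT and Mars2 at the bottom at 1.69, and most mitochondrial genes lie to the right.

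For 16 pairs of a cytosolic and a mitochondrial gene for the same amino acid (Eprs is paired with both Ears2 and Pars2), the cytosolic gene was the more abundant per kilobase in WT in 15. The exception was leucine, where Lars was at 0.844 ± 0.0839 of the level of Lars2 (SD, n = 7). The ratio was next lowest for isoleucine (Iars over Iars2, 1.12 ± 0.0597) and highest for methionine (Mars over Mars2, 15.6 ± 2.75) and tryptophan (Wars over Wars2, 14.0 ± 2.56). The Mars2 model has 11294 exonic bases, the longest of the family, so that its level per kilobase is low for its 74 to 129 counts per library. The order of the threonine pair depended on the length used. With the longest transcript as length, Tars2 was at 14.1 and Tars at 13.0 CPM per kilobase, against 10.5 and 13.0 with all exons. The isoleucine ratio is uncertain, because Iars2 shares 37.2% of its exonic bases with Rab3gap2.

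The question was which synthetase genes differ when Upf3b is absent. With edgeR's quasi-likelihood test and an adjusted p threshold of 0.05, 8 of the 38 genes had risen in KO and 4 had fallen (31.6% called). Over all 14274 tested genes 29.7% were called, 15.3% higher and 14.4% lower, so the share of synthetases called was near that of all genes. Their median log2 fold change of 0.035 was also near the 0.034 of all tested genes. The changes were small: log2 fold changes ran from -0.23 (Gars) to 0.55 (Wars2). The summed level of the 38 genes was 2609 to 2782 CPM in WT and 2648 to 2732 CPM in KO, with the KO range inside the WT range. Without KO 2 and WT 4 the test called 6 members higher and 4 lower, against 30.6% of all genes (15.2% higher and 15.4% lower). The 8 rises became 5 without KO 2, without KO 4 or without KO 6, and the 4 falls became 2 without KO 2, 4 or 6 or without WT 1, 2 or 5.

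The calls were counted by compartment. Of the 17 mitochondrial genes 5 rose (Vars2, Tars2, Wars2, Nars2 and Ears2) and none fell, with a median log2 fold change of 0.099. At an unadjusted edgeR p under 0.05 2 mitochondrial genes had lower values, among them Iars2, and DESeq2's Wald test also called 0 of the 17 lower. In edgeR with DESeq2 size factors, with upper-quartile factors or without the filter, 1 of the 17 was lower. Of the 21 cytosolic genes 3 rose (Lars, Iars and Eprs) and 4 fell (Gars, Sars, Nars and Dars), with a median of -0.018. Of all tested genes 15.3% were higher and 14.4% lower. The difference between compartments was not tested. Mitochondrial genes were counted at a lower density, with a median of 0.0598 counts per exonic base against 0.157 for cytosolic genes. All tested genes were split into 10 bins by count density. Their median log2 fold change was 0.246 in the thinnest bin and -0.182 in the densest. A fit with per-library offsets for count density gave medians of 0.012 for mitochondrial and 0.043 for cytosolic genes, the opposite order. In that fit 2 mitochondrial genes were higher and 2 lower, and 2 cytosolic genes were higher and 0 lower. With density and length offsets the mitochondrial median was again the higher (0.053 against 0.038), as with the library total as a covariate (0.095 against 0.011).

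With the density offsets 4 members were higher (Vars2, Wars2, Lars and Eprs) and 2 were lower (among them Iars2), against 16.3% of all genes called, 8.43% higher and 7.85% lower. The 4 higher genes had also been called without offsets. None of the 4 cytosolic falls passed with offsets. When exonic length was added to these offsets, a choice made after seeing the data, 4 members were higher (Vars2, Wars2, Eprs and Hars) and 3 lower (among them Iars2 and Mars2), against 8.42% and 7.66% of all genes, and Lars did not pass (adjusted p = 0.0562). With the log2 library total as a covariate 0 members passed, at 0.666% of all genes called (0.588% higher and 0.0771% lower), and 3 members had an unadjusted p under 0.05. There 11 of the 12 called members kept their sign, while the fold change of Nars was near 0 (0.0019). Library total nearly separated the groups, so this fit can hardly tell it from genotype. The SEs were larger than without the covariate, with Wars2 at 0.56 ± 0.22, Tars2 at 0.26 ± 0.09 and Vars2 at 0.18 ± 0.11.

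**Figure D2:**
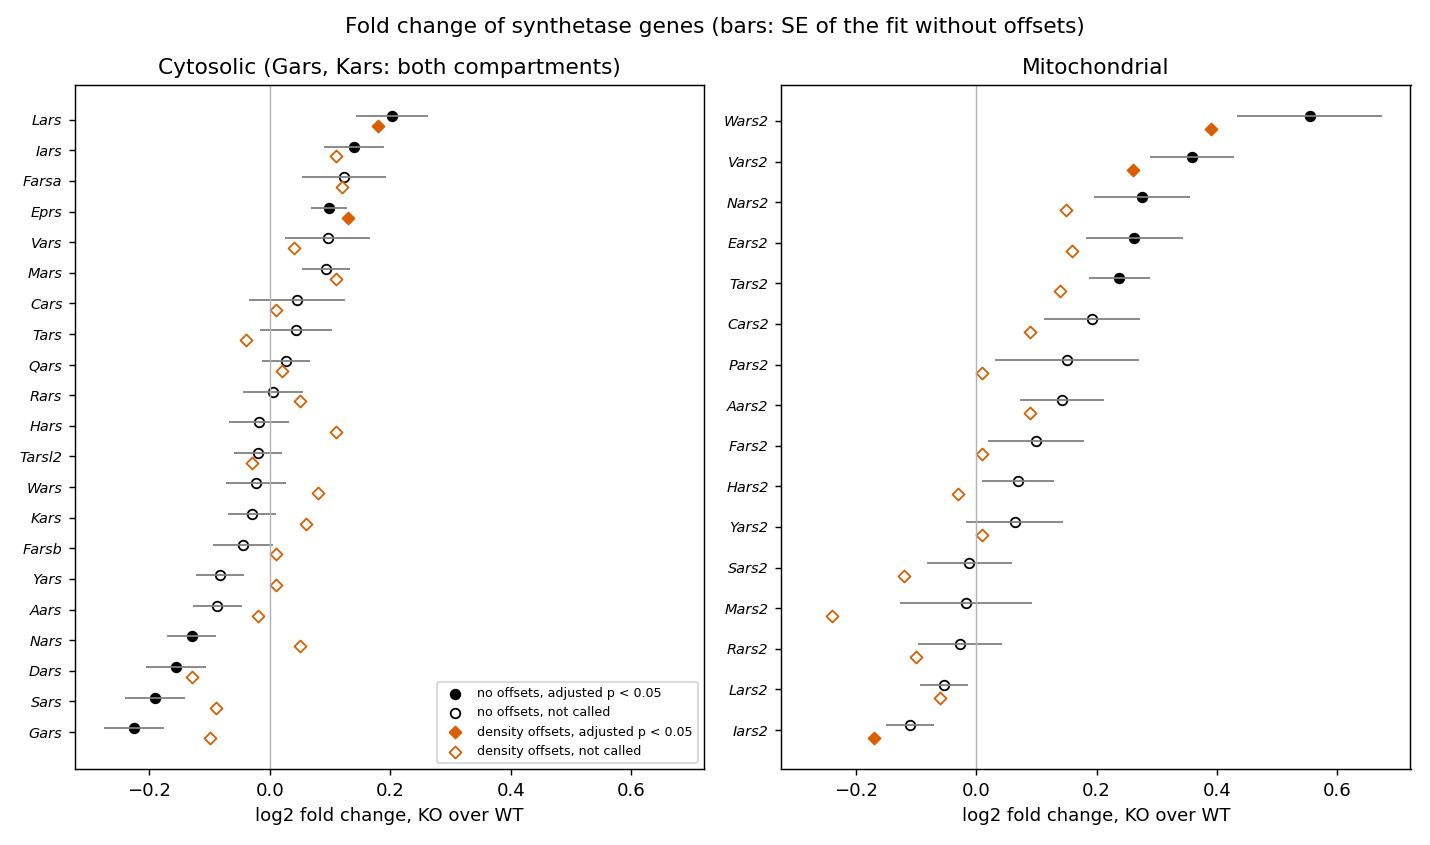
The log2 fold change (KO over WT) of 37 synthetase genes, with circles and SE bars for the edgeR fit without offsets, diamonds for the fit with density offsets, and filled symbols for an adjusted p under 0.05. Vars2, Wars2, Lars and Eprs are filled in both fits, and the diamonds of Gars and Sars lie nearer to 0 than their circles.

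Vars2, the mitochondrial valine enzyme, was the call with the smallest p. Its level was 48.1, 53.8, 58.4, 54.2 and 61.9 CPM in KO 1, 2, 3, 4 and 6, and 38.7 to 47.7 CPM in WT with a median of 42.9. All 5 KO mice lay above all 7 WT mice, with KO 1 just above the highest WT mouse. It rose by 0.36 ± 0.07 (SE) in log2 fold change, a 1.28-fold rise (edgeR adjusted p = 0.00183), and 0.26 ± 0.06 with density offsets (adjusted p = 0.0162). In genes of the same density bin the median was 0.09. Vars2 lies on chromosome 17 at 35655634 to 35667592 (mm10, minus strand), and 6.69% of its exonic bases are shared with Gm20483, an antisense gene, from which its reads cannot be told apart without strand.

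Wars2, the mitochondrial tryptophan enzyme, had the largest fold change of the family. The KO libraries held 19.6, 19.9, 17.3, 22.9 and 26.3 CPM, in the same mouse order, and the WT libraries 10.8 to 17.2 CPM with a median of 15.0. The groups did not overlap, although KO 3 was close to the highest WT mouse and KO 6 was the highest of all. The mean rose from 14.5 ± 2.25 (SD, n = 7) to 21.2 ± 3.49 CPM (SD, n = 5), by a log2 fold change of 0.55 ± 0.12 (SE; edgeR adjusted p = 0.00440), and by 0.39 ± 0.12 with density offsets (adjusted p = 0.0441). The median of its density bin was 0.20. The gene lies on chromosome 3 at 99141068 to 99239186 of mm10, on the plus strand.

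Tars2, the mitochondrial threonine enzyme, was the third gene without overlap. Its level was 51.5, 54.5, 52.5, 54.9 and 55.2 CPM in the KO mice and 42.1 to 50.5 CPM in WT, with a median of 46.0. KO mice varied little, and all lay above WT 5, the highest WT mouse. The log2 fold change of 0.24 ± 0.05 (SE; edgeR adjusted p = 0.00324) was 0.14 ± 0.05 with density offsets and then missed the threshold (adjusted p = 0.0828). Among all tested genes 5.84% had every KO library above every WT library and 4.8% had every KO library below, against these 3 and 0 of the 38 synthetases.

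Nars2, the mitochondrial asparagine enzyme, was at 29.0, 32.0, 31.5, 30.2 and 27.7 CPM in KO and at 20.8 to 29.9 CPM in WT, with a median of 24.4. Of the KO mice 3 lay above every WT mouse, while KO 1 and KO 6 were below WT 4. Its log2 fold change was 0.28 ± 0.08 (SE; edgeR adjusted p = 0.0176), and 0.15 ± 0.07 with density offsets (adjusted p = 0.170). Ears2, the mitochondrial glutamate enzyme, had 4 of 5 KO mice above the WT range of 16.7 to 21.8 CPM and a log2 fold change of 0.26 ± 0.08 (edgeR adjusted p = 0.0265). Its adjusted p was 0.0793 without KO 2 and WT 4 and 0.174 with density offsets. Of the 12 mitochondrial genes that were not called, with log2 fold changes from -0.14 to 0.19, the highest values were those of Cars2 and Pars2, the cysteine and proline enzymes. Cars2 was at 24.7 CPM in KO 2 and KO 6 and at 20 to 21.0 CPM in the other 3 KO mice against 17.1 to 21.2 in WT (0.19 ± 0.08, edgeR adjusted p = 0.0855), with only KO 2 and KO 6 above the WT range. Its exons share 22.2% of their bases with Naxd on the other strand, so its counts are uncertain. Pars2 was at 14.3, 21.3, 23.8, 18.9 and 21.4 CPM in KO and at 14.7 to 20.8 CPM in WT, so that KO 1 was the lowest of all mice and 3 KO mice were above WT (0.15 ± 0.12, edgeR adjusted p = 0.365).

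Iars2, the mitochondrial isoleucine enzyme, had a value of the other sign. It was at 80.3 to 89.8 CPM in KO and 85.4 to 96.3 CPM in WT, and its log2 fold change of -0.11 ± 0.04 missed the threshold without offsets (edgeR adjusted p = 0.0547). With density offsets it was -0.17 ± 0.04 (adjusted p = 0.0113). Iars2 shares 37.2% of its exonic bases with Rab3gap2 on the other strand, so its counts are uncertain.

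**Figure D3:**
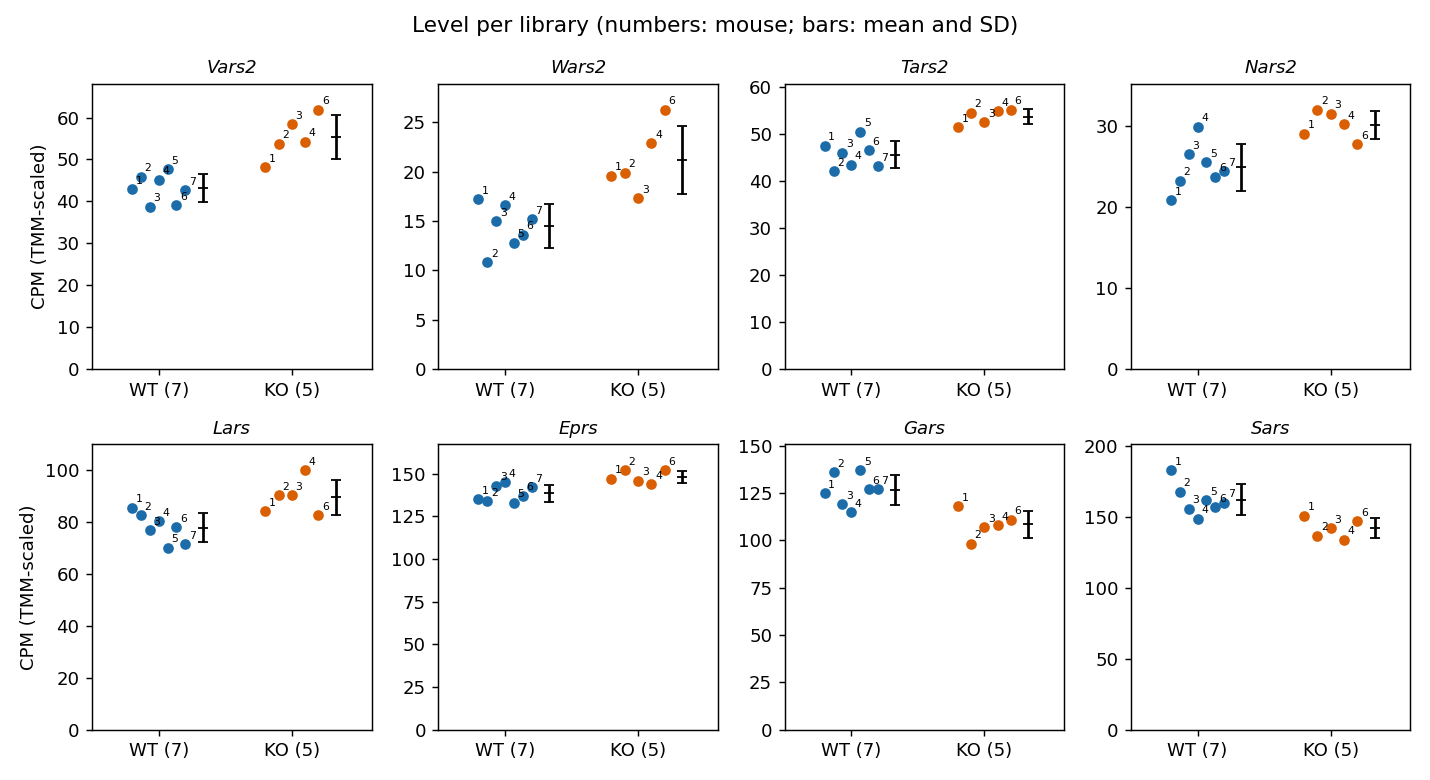
CPM in each library for 8 called synthetase genes, with WT mice in blue, KO mice in orange, mouse numbers beside the points, and bars for the mean and SD; each axis starts at 0. Vars2, Wars2 and Tars2 show no overlap between groups, and KO 1 lies inside the WT range for Nars2, Lars, Gars and Sars.

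The 3 cytosolic genes that rose encode enzymes of the multi-synthetase complex. Their number became 0 without KO 4, and 1 without KO 2, KO 3, KO 6, WT 1 or WT 2. Lars, the leucine enzyme that also signals leucine supply to mTORC1, was at 84.3, 90.4, 90.4, 100 and 82.7 CPM in KO and at 70.2 to 85.6 CPM in WT, with a median of 78.1. KO 1 and KO 6 lay inside the upper part of the WT range and the other 3 KO mice above it. This gave a log2 fold change of 0.20 ± 0.06 (SE; edgeR adjusted p = 0.0178), and 0.18 ± 0.06 with density offsets (adjusted p = 0.0452). Without KO 4, the highest mouse, the call was lost (adjusted p = 0.0617). Eprs, the fused glutamate and proline enzyme, was at 147, 152, 146, 144 and 152 CPM in KO and 133 to 145 CPM in WT, with a median of 137. All KO mice but KO 4 were above the WT range, but the difference was small, at 0.10 ± 0.03 (edgeR adjusted p = 0.0396) and 0.13 ± 0.03 with density offsets (adjusted p = 0.0167). Without offsets Eprs passed in 4 of the 12 fits that leave out 1 library, with an adjusted p of up to 0.0919, and did not pass without KO 2 and WT 4 (0.0848) or with DESeq2. Iars, the isoleucine enzyme, rose by 0.14 ± 0.05 (adjusted p = 0.0343) and did not pass with offsets (0.11, adjusted p = 0.0882); it passed in 5 of the 12 fits without 1 library. Dars, the aspartate enzyme of the complex, fell by 0.16 on the log2 scale (edgeR adjusted p = 0.0403; 5 of those 12 fits), and Mars, Qars, Rars and Kars did not pass. The complex had 3 higher and 1 lower of 8 members, with a median of 0.060, and the 13 other cytosolic genes 0 higher and 3 lower, with a median of -0.023, beside 15.3% higher and 14.4% lower of all genes. The difference between these 2 sets was not tested. Among those 13, 0 were higher at an unadjusted edgeR p under 0.05. DESeq2's Wald test called 0 of the 13 higher and 4 lower, and 1 higher and 1 lower in the complex. Without KO 2 and WT 4 the complex had 2 higher and 0 lower, and the 13 others 0 higher and 4 lower. With density offsets the counts were 2 and 0 for the complex and 0 and 0 for the others, beside 8.43% and 7.85% of all genes. With density and length offsets they were 1 and 0 for the complex and 1 and 0 for the others, beside 8.42% and 7.66%. Median counts per exonic base were 0.149 in the complex and 0.191 in the others.

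Of the 3 scaffold genes of the complex, 2 fell and 0 rose, beside 14.4% lower and 15.3% higher of all genes. With density offsets 1 was lower and 0 higher, beside 7.85% and 8.43%. Aimp1, the p43 scaffold that is also released as a cytokine, fell from 52.4 ± 3.29 to 44.4 ± 2.43 CPM, by a log2 fold change of -0.24 ± 0.06 (SE; edgeR adjusted p = 0.00532). Eef1e1, which encodes the p18 scaffold, fell by 0.25 on the log2 scale (adjusted p = 0.0129), and with density offsets by 0.34 (adjusted p = 0.00442). Aimp2, the p38 scaffold, stood at 39.0 ± 4.52 and 38.9 ± 0.733 CPM (adjusted p = 0.958). Aimp1 with density offsets had a log2 fold change of -0.13 (adjusted p = 0.117).

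Gars showed the largest fall. It charges glycine in the cytosol and in mitochondria, and was at 118, 98.2, 107, 108 and 111 CPM in KO against 115 to 137 CPM in WT with a median of 127. KO 1 was the only KO mouse inside the WT range. Its log2 fold change was -0.23 ± 0.05 (SE; edgeR adjusted p = 0.00578), and -0.10 ± 0.04 with density offsets (adjusted p = 0.108). Sars, the serine enzyme, which also charges the selenocysteine tRNA, was at 151, 137, 142, 134 and 147 CPM in KO and at 149 to 183 CPM in WT, with a median of 160. Again only KO 1 reached the WT range. Its log2 fold change of -0.19 ± 0.05 (edgeR adjusted p = 0.00955) was -0.09 ± 0.04 with offsets (adjusted p = 0.110). Nars fell by 0.13 on the log2 scale without offsets (adjusted p = 0.0303) and was called in 4 of the 12 fits that leave out 1 library. Its value was 0.05 with offsets (adjusted p = 0.238), and genes of its density bin had a median of -0.18. The 4 falls were all in class II enzymes (4 of 11 cytosolic class II genes). The 9 cytosolic class I genes had 2 higher and 0 lower, beside 15.3% higher and 14.4% lower of all genes. DESeq2 called 1 of these 9 higher and 0 lower, and 0 of the 11 class II genes higher and 5 lower. At an unadjusted edgeR p under 0.05, 1 of the 9, Yars, was lower (-0.08). With density offsets class II had 0 higher and 0 lower and class I 1 and 0, beside 8.43% and 7.85%. With length added the counts were 1 and 0, and 0 and 0. Median counts per exonic base were 0.191 in class II and 0.127 in class I. The difference between classes was not tested.

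KO 1 is the KO library whose total lay inside the WT range, and it was examined for the 12 called genes. It was inside the WT range for all 4 genes that fell and for 4 of the 8 that rose (Lars, Iars, Nars2 and Ears2), and above it for Vars2, Wars2, Tars2 and Eprs. Among the other KO libraries, KO 3 lay inside the WT range for Dars, KO 4 for Eprs, and KO 6 for Lars, Nars2 and Nars. The same count over all called genes is not given, and the part of library total in the calls was not tested.

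**Figure D4:**
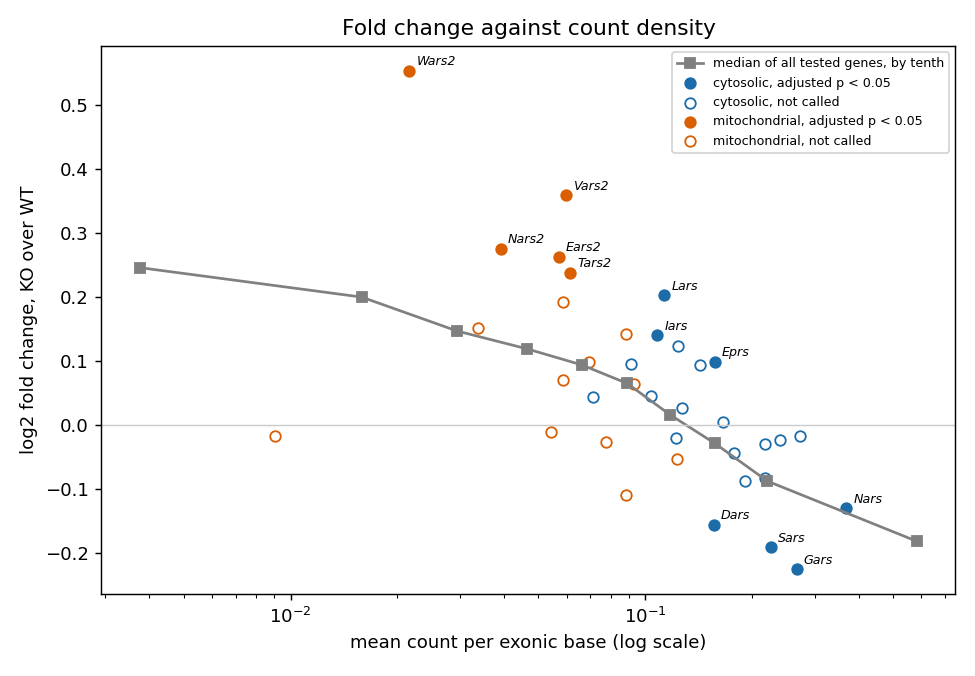
The log2 fold change of 37 synthetase genes against the mean count per exonic base (log axis), with cytosolic genes in blue, mitochondrial genes in orange, filled symbols for an adjusted p under 0.05, and grey squares for the median of all tested genes in each of 10 density bins. The grey line falls from 0.246 to -0.182, Nars lies near it, and Wars2 and Vars2 lie above it.

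Annotated NMD-type transcripts were common in the family. In GENCODE M21, 21 of the 38 genes (55.3%) have at least 1 transcript classed as a target of NMD, against 26.6% of 14228 tested genes with annotation, and the synthetases also have more annotated transcripts (median 7 against 5). Of the 21 genes 7 were higher and 1 was lower, and of the 17 without such a transcript 1 was higher and 3 were lower. Ears2 was the higher gene without one, and Nars, with 6 such transcripts, the lower gene with one. The medians were 0.064 and -0.020, and 0.084 and -0.027 with density offsets. Over all tested genes 21.2% of those with such a transcript were higher and 12.5% lower, against 13.2% and 15.0% of those without. Counts are per gene, so the NMD-type transcripts themselves were not measured.

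The 5 genes with the motif did not move together: their log2 fold changes were -0.23 in Gars, -0.09 in Aars, -0.08 in Yars, 0.04 in Tars and 0.14 in Iars, of which those of Gars and Iars passed. Among all tested genes the median was 0.064 in the 304 with the motif and 0.033 in those without. The list for the ATF4 response held 32 other tested genes, Atf4 itself and the kinase gene Eif2ak4 among them. Of these 5 were higher and 3 lower, with a median of 0.028, beside 15.3% higher and 14.4% lower of all genes. With density offsets 4 were higher and 2 lower, beside 8.43% and 7.85%. Eif2ak4, the kinase GCN2 that senses uncharged tRNA, rose by 0.39 ± 0.05 (SE; edgeR adjusted p = 3.14e-04), and by 0.27 with density offsets (adjusted p = 0.00167). Slc7a1, a transporter of cationic amino acids, rose by 0.26 ± 0.05 (adjusted p = 0.00253). Asns, asparagine synthetase, which makes asparagine itself and charges no tRNA, fell by 0.20 on the log2 scale (adjusted p = 0.00219), but not with density offsets (-0.05, adjusted p = 0.389). The list of amino acid sensing by GCN2 and mTORC1 shares Eif2ak4 and Sesn2 with the ATF4 list. Of its 26 genes 7 were higher and 6 lower, with a median of 0.042, beside 15.3% higher and 14.4% lower of all genes. With density offsets 7 were higher and 3 lower, beside 8.43% and 7.85%. Rraga, a Rag GTPase, fell by 0.26 on the log2 scale and Depdc5, a subunit of the complex that restrains it, rose by 0.28 ± 0.05 (adjusted p = 5.97e-04 and 9.12e-04). Interferon-responsive genes were listed because interferon induces Wars. Of these 4 of 21 were higher, among them Irf9 and Gbp2, and 2 were lower, among them B2m (-0.34), beside 15.3% and 14.4% of all genes. With density offsets 0 were higher and 1, B2m (-0.17), was lower, with Irf9 and Gbp2 at an adjusted p of 0.0643 and 0.0662. Wars stood at a log2 fold change of -0.02 without offsets (adjusted p = 0.751).

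Of 69 tested genes of tRNA modification, 18 were higher and 1 was lower, beside 15.3% higher and 14.4% lower of all genes, with a median of 0.135 against 0.034 for all tested genes. Mettl2, a tRNA 3-methylcytidine methyltransferase, rose from 24.8 ± 1.20 to 35.3 ± 1.04 CPM, by 0.51 ± 0.05 on the log2 scale (SE; edgeR adjusted p = 2.9e-05). Wdr4, the partner of the 7-methylguanosine methyltransferase Mettl1, rose by 0.33 ± 0.06 and Trub2, a pseudouridine synthase, by 0.38 ± 0.07 (adjusted p = 0.00126 and 0.00183). With density offsets 7 of the list were higher and 4 lower, beside 8.43% and 7.85% of all genes, with a median of 0.047 against 0.003 for all genes, and all 3 of these genes passed. Of 22 genes of RNA polymerase III transcription, which makes tRNA precursors, 6 were higher and 1 was lower (median 0.085), which became 4 and 1 with density offsets. Bdp1, a subunit of the initiation factor TFIIIB, rose by 0.62 ± 0.08 and the polymerase subunits Polr3c and Polr3b by 0.42 ± 0.07 and 0.33 ± 0.07 (adjusted p = 2.48e-04, 0.00108 and 0.00253).

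Of 31 genes that trim tRNA ends and splice tRNAs, 8 were lower and 3 higher (median -0.099), beside 14.4% lower and 15.3% higher of all genes. With density offsets 9 were lower and 2 higher, beside 7.85% and 8.43%. The gene 2700060E02Rik, a partner of the tRNA ligase complex, fell by 0.39 on the log2 scale (adjusted p = 2.70e-04), while Elac1, a tRNA 3′ endonuclease, rose by 0.20 ± 0.05 (adjusted p = 0.00398). The selenocysteine pathway, which starts from serine charged by Sars, had 4 higher and 1 lower of 8 (median 0.148), with Sephs1 at 0.36 ± 0.04, Secisbp2 at 0.39 ± 0.06 and Eefsec at 0.25 ± 0.07 (adjusted p = 1.15e-04, 6.15e-04 and 0.0126); 2 higher and 1 lower passed with density offsets. The elongation factor 1 complex, which takes charged tRNAs to the ribosome, had 4 lower of 5 (median -0.245). Eef1b2, Eef1a1 and Eef1g fell by 0.25, 0.37 and 0.24 on the log2 scale (adjusted p = 0.00112, 0.00119 and 0.00268), and 2 genes, Eef1b2 and Eef1a1, passed with density offsets. Of 7 genes of editing and peptidyl-tRNA hydrolysis only Aarsd1, an editing protein related to Aars, was called, and it was lower (-0.18 ± 0.06, adjusted p = 0.0294). With density offsets it did not pass (-0.08, adjusted p = 0.366). Export of tRNA had 1 higher and 1 lower of 3, Xpo5 and Ran, and 0 and 0 with offsets. Of the 4 genes that finish mitochondrial charging by amidation or formylation, 0 were called by edgeR, 0 by DESeq2 and 0 at an unadjusted edgeR p under 0.05, with Gatb at 0.10 ± 0.09 (adjusted p = 0.415).

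Several synthetase genes share their start region with another gene. With a window of 1000 bases, 10 had a protein-coding start on the other strand close by, Hars and Hars2 with each other. Partners of called members were few. Ears2 and its partner Ubfd1, 88 bases apart, both rose (0.26 and 0.11, adjusted p = 0.0265 and 0.0415), and 4.35% of the exonic bases of Ears2 are shared with Ubfd1. In other pairs the partner was called and the synthetase was not, as with Lyrm4 beside Fars2 (-0.33 ± 0.07, adjusted p = 0.00280) and Wdr25 beside Wars (0.33 ± 0.09, adjusted p = 0.0155), with the synthetase at an adjusted p of 0.367 and 0.751. With density offsets Lyrm4 still passed (-0.41, adjusted p = 0.00226), while Wdr25 (0.19, adjusted p = 0.129), Ears2 and Ubfd1 (adjusted p = 0.174 and 0.0817) did not. Eprs and Iars2 are neighbours on chromosome 1, 33648 bases apart on opposite strands, and had log2 fold changes of 0.10 and -0.11 (0.13 and -0.17 with density offsets). Of the 38 genes 14 share exonic bases with another annotated gene, and their counts are uncertain to that extent.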

How the data were processed

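The deposited table holds whole-number read counts per gene and library, made by the authors, and neither normalized nor pooled as far as its values show. STAR is named as a tool and mm10 as a build, per the submitters' processing notes; no source used here gives the counter, its strand setting or its handling of duplicates. Groups and mouse numbers came from the sample titles. GENCODE M21 supplied gene positions and exonic lengths for 14438 symbols, and 419 more genes were found by accession. The main test was edgeR 4.0.16 under R 4.3.3 (TMM, filterByExpr, quasi-likelihood, Benjamini-Hochberg adjustment over all 14274 tested genes), and members were read from that fit. The SE is the size of the log2 fold change divided by the square root of F. Density offsets came from a loess fit (span 0.3) per library on the count per exonic base, for 14110 genes. Alternatives were DESeq2 1.42.0, limma-voom 3.58.1, other scalings, filters and thresholds, a library-total covariate, a mouse-number block and left-out libraries. The fits were tested on simulated data, with the same dispersion for every gene. Those data held no trend of fold change with count density or library total, so they could not test how the fits handle such trends. WT 6 and WT 7 were the closest pair in a chi-square test of their counts (1.02 per degree of freedom, p = 0.0205). The other WT pairs ran from 1.24 to 7.18, so WT 6 and WT 7 differed by little more than sampling noise. The titles give them as separate mice, and they were kept as 2 libraries. Whether they are independent was not tested.

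The members and lists were chosen with earlier results of these data known. Values per mouse are given for members called with and without density offsets, the 4 with the next smallest p and the 2 with the largest log2 fold change that did not pass. From each list up to 3 called genes with the smallest p are named. Values of 1 member and 1 list gene are not reported here; both are in the counts.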

Additional observations from a re-analysis of the deposited data

Results flagged for a closer look

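The levels of 37 members and Upf3b were searched for a single library far from the rest of its group, in 76 groups of 5 or 7 libraries. In 4 of these the gap exceeded Dixon's 95% critical value, where chance gives about 1 in 20. Aars, the alanine enzyme, was lowest in WT 4 at 194 CPM, with the other WT mice at 208 to 218. Iars2 was lowest in WT 3 at 85.4 CPM, with the others at 91.8 to 96.3. Wars was lowest in KO 2 at 122 CPM, with the other KO mice at 127 to 129. Yars2, the mitochondrial tyrosine enzyme, was lowest in WT 6 at 22.6 CPM, with the others at 26.5 to 28. None of the 12 members called without density offsets was among these 4.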

How the results depend on the processing

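The 8 higher and 4 lower synthetases became 5 higher with DESeq2's Wald test, 4 and 2 with density offsets, 4 higher with density and length offsets (chosen after seeing the data), 0 and 0 with library totals in the model (the covariate below), and 3 and 2 at an adjusted p under 0.01. The 3 cytosolic rises became 1 with DESeq2 size factors, 1 with DESeq2's test, 1 without the filter and 0 with the covariate, and the 4 cytosolic falls 0 with density offsets, 0 with density and length offsets and 0 with the covariate. The 5 mitochondrial rises became 2 with density offsets, 2 with density and length offsets and 0 with the covariate, and the 0 mitochondrial falls 1 with DESeq2 size factors, 1 with upper-quartile factors, 1 without the filter, 2 with density offsets and 3 with density and length offsets. The median of 0.035 was 0.004 without both KO 2 and WT 4. Nars changed sign with density offsets (0.05), density and length offsets (0.04) and the covariate (0.0019), and Pars2 with the covariate (-0.16). The 47 higher and 30 lower genes of the pathway lists stood beside 15.3% higher and 14.4% lower of all genes. With density offsets they became 25 and 24, beside 8.43% and 7.85%. With density and length offsets they became 30 and 20, beside 8.42% and 7.66%. With the covariate they became 2 and 0, beside 0.588% and 0.0771%. With the mouse number as a replicate block, 4 synthetases were higher and 1 lower, beside 1129 higher and 1186 lower of all 14274 tested genes. Among the synthetases 1 cytosolic gene was higher and 1 lower, and 3 mitochondrial genes were higher. In the same fit 23 list genes were higher and 17 lower, among them 1 higher and 2 lower of the 31 of tRNA ends and splicing. The shared numbers did not pair the mice: same-numbered mice correlated at 0.141, -0.376, -0.0483, -0.0745 and 0.0387 for mice 1, 2, 3, 4 and 6, and in 0 of the 5 pairs was the same-numbered WT mouse the best match. Leaving out 1 library at a time gave 5 to 8 higher and 2 to 6 lower synthetases, 0 to 3 cytosolic rises and 2 to 5 falls, 4 to 5 mitochondrial rises and 0 to 1 falls, a median of 0.013 to 0.047, 36 to 53 higher and 22 to 37 lower list genes, and -3.92 to -3.64 for Upf3b. For these changes the cause was not tested. Library total nearly separated the groups, so the fit with the covariate can hardly tell it from genotype. Counts per member and library ran from 57 to 1364.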
